A study of Mus musculus with 4 samples.

Results

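The mitochondrial carriers of the Slc25 family were followed in laser-captured mouse Paneth cells. These granule-filled cells sit at the bottom of intestinal crypts and secrete lysozyme and defensins. Members were all genes whose probe sets carried a single annotated symbol made of Slc25a and a number, with Slc25a1 left out. They numbered 43 of the 18193 genes named on the array and had 92 probe sets. Each gene was read from its brightest probe set by the mean over all arrays, and the other probe sets were set beside it. The gene ID of each of the 43 carried the same symbol in RefSeq's mouse gene table.

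Mitochondrial carriers are small proteins of the inner mitochondrial membrane that exchange nucleotides, phosphate, organic acids, amino acids, cofactors and metal ions between the cytosol and the matrix. The ADP/ATP carriers and the phosphate carrier feed ATP synthesis, the carnitine/acylcarnitine carrier brings fatty acids to oxidation, and the aspartate/glutamate and oxoglutarate carriers move reducing equivalents. Atg16l1, the mouse gene read here for the Atg16 of the labels, encodes a protein needed to form autophagosomes, which can also take up whole mitochondria.

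Total RNA was amplified, labelled with biotin and hybridised to 4 one-colour arrays. Of these, 2 came from Paneth cells of Atg16 hypomorph mice, which carry an allele of reduced function, and 2 from wildtype mice, all of a mixed C57BL/6 and 129ola background. The sources used here do not give age, treatment, the nature of the allele, the number of cells captured or the animals behind each array. The p-values therefore reflect only how far these arrays spread, and that spread may be technical. The number of arrays limits the precision. Values are deposited linear intensities, and levels of different probe sets are not comparable with each other. Each difference is the hypomorph mean less the wildtype mean of log2(intensity + 32). It understates changes of dim genes, and a call is an adjusted p under 0.05 in limma. A count before adjustment takes an unadjusted p under 0.05.

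Array medians lay between 47.2 and 49.5. Atg16l1 read 966 and 995 on the hypomorph arrays, against 1335 and 1183 on the wildtype arrays, and did not pass the test (limma, adjusted p = 0.102). The Paneth cell markers were bright: 9 were on the array, with Lyz1, lysozyme, at 14561 and 15097 in hypomorph and 15481 and 16021 in wildtype, and they summed to 73586 and 77474 in hypomorph and to 74448 and 76341 in wildtype. Of these 9 markers 2 were called higher, Mptx1 and Reg3g, and 0 lower in limma (2 lower when p was left unadjusted). Only 1 was called higher without hypomorph replicate 2, without wildtype replicate 1 or without wildtype replicate 2, and 1 was called lower without hypomorph replicate 2. Without a filter 1 was called higher, and without an intensity trend 0. The groups also differed in Xist, an RNA made from the silenced X in female cells, at 4414 and 4510 in hypomorph and at 18 and 25.6 in wildtype. Sex, as read from Xist, thus ran together with genotype. The parts of sex and genotype in any difference given here cannot be told apart. In such captured tissue, fewer cells of a type and less RNA per cell cannot be told apart.

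Of the 43 carriers 35 were bright enough to be tested. Slc25a20, the carnitine/acylcarnitine carrier, and Slc25a10, the dicarboxylate carrier, were higher in hypomorph, and Slc25a16, a carrier linked to coenzyme A through its yeast relative, was lower. The other 32 tested carriers did not pass, and 31 of them differed by less than 0.5 on the log2 scale. Some of their 95% intervals reached past 0.5, as for Slc25a13 (-0.35 to 0.74) and Slc25a25 (-0.19 to 0.62). The 2 higher of 35 stand beside 2.53% of all 11577 genes tested that were called higher, and the 1 lower beside 1.70% called lower. Unadjusted p-values under 0.05 were found for 3 carriers that were higher, beside 10.0% of all genes, and for 3 that were lower, beside 11.6%. The median difference was -0.0027 over the carriers and -0.02 over all genes tested. Of the tested carriers 17 had a difference above 0 and 18 below. The arrays of the groups did not overlap for 9 carriers that were higher in hypomorph and 11 that were lower, beside 23.4% and 30.0% of all genes tested.

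**Figure D1:**
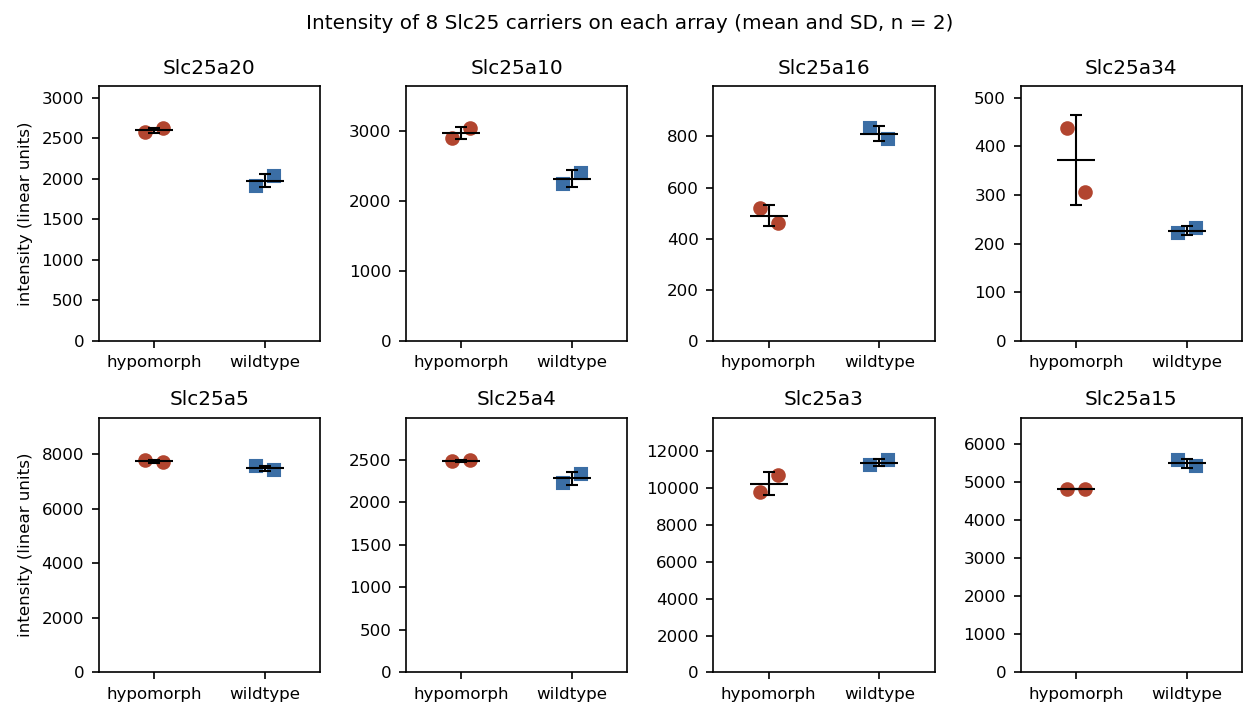
Intensity of 8 carriers in linear units, with a panel each and an axis that starts at 0. Points are the 2 arrays of each group, hypomorph on the left and wildtype on the right, with the mean and SD. Slc25a20 and Slc25a10 sit higher and Slc25a16 lower on both hypomorph arrays, whereas Slc25a5 reads 7799 and 7717 in hypomorph and 7561 and 7427 in wildtype.

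Slc25a20 imports acylcarnitines into the matrix in exchange for carnitine, the step that links the carnitine shuttle to fatty acid oxidation. It measured 2573 and 2621 in hypomorph, against 1918 and 2030 in wildtype. Both hypomorph arrays lay above both wildtype arrays, and the log2 difference was 0.39 (SE 0.08, 95% interval 0.21 to 0.57, limma adjusted p = 0.0279). Its second probe set read 521 and 629 in hypomorph and 431 and 468 in wildtype, a difference of 0.33 in the same direction that did not pass (limma, adjusted p = 0.213). The call was lost without hypomorph replicate 1 (0.40, limma adjusted p = 0.0544), without wildtype replicate 1 (0.35, adjusted p = 0.156) and without wildtype replicate 2 (0.43, adjusted p = 0.0661).

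Slc25a10 exchanges malate and succinate for phosphate and is known for its abundance in white fat and liver of mice. Its intensity was 2903 and 3032 in hypomorph, against 2235 and 2400 in wildtype. The groups did not overlap, with a log2 difference of 0.35 (SE 0.08, 95% interval 0.18 to 0.53, limma adjusted p = 0.0401). The call was lost when any one of the 4 arrays was left out, with differences of 0.30 to 0.40 and limma adjusted p between 0.0552 and 0.223. A dimmer probe set of Slc25a10 read 58.6 and 41.6 in hypomorph and 54.9 and 50.1 in wildtype, so its groups overlapped (-0.05, limma adjusted p = 0.910). The mean of both probe sets differed by 0.15 (limma adjusted p = 0.388).

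Slc25a16 measured 519 and 462 in hypomorph, against 831 and 790 in wildtype. Both hypomorph arrays lay well below both wildtype arrays, and the log2 difference was -0.69 (SE 0.12, 95% interval -0.96 to -0.42, limma adjusted p = 0.0137). It was the lowest difference among the 35 tested carriers. The gene had 1 probe set, so no second reading stands beside it. Its call was lost without wildtype replicate 1 (-0.66, limma adjusted p = 0.0626).

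The stretches upstream of the start sites of these 3 genes are shown because they are the members that were called, 2 higher and 1 lower. They are the 250 bases before the annotated start in RefSeq, build GRCm38.p6, all on the plus strand: chr9:108661886-108662135 for Slc25a20, chr11:120491587-120491836 for Slc25a10 and chr10:62920383-62920632 for Slc25a16. Capitals mark the GC box, GGGCGG, and its reverse complement CCGCCC.
Slc25a20: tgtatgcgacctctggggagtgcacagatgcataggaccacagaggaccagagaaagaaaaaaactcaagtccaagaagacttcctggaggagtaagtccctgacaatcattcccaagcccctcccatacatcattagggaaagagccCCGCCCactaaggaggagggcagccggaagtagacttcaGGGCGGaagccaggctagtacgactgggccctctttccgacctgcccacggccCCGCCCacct
Slc25a10: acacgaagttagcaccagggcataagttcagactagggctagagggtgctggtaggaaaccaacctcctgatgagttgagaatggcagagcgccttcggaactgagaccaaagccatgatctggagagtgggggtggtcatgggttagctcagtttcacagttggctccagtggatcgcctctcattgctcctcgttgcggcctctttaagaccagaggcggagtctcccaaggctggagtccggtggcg
Slc25a16: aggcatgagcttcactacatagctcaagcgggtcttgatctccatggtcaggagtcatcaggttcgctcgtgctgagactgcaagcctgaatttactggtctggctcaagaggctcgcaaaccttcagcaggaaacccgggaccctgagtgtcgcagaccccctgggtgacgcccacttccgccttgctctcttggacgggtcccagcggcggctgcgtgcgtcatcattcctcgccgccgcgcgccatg

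Slc25a20 held 3 GC boxes in this window, and Slc25a10 and Slc25a16 held 0. GC content was 56.8% for Slc25a20, 56% for Slc25a10 and 60.8% for Slc25a16, beside medians of 57.8% over all promoter windows of the family and 52.4% over all those in the table. Of the 43 carriers 33 matched a promoter entry, and 24 of these (72.7%) held a GC box on either strand, as did 35.4% of all genes with an entry. All genes with an entry numbered 27025. They include genes not on the array and were not matched to the carriers in brightness or GC content. The E-box CACGTG, which reads the same on both strands, was present for 6 of the 33 (18.2%) and for 6.86% of all genes. The nuclear receptor half-site AGGTCA, searched on both strands, was present for 4 of the 33 (12.1%) and 15.8% of all genes, and none of the 3 called carriers had these letters in the window. None of these motifs contains another. These matches describe the windows and were not tested against the differences.

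Fat cell and enterocyte markers were read beside the carriers. In hypomorph 9 of 10 tested fat cell markers were called higher and 0 lower (limma, 0 lower before adjustment), and the 12 on the array summed to 33587 and 33572, against 10838 and 11049 in wildtype, with a median log2 difference of 1.95. Adipoq, the hormone adiponectin, read 675 and 680 in hypomorph and 109 and 101 in wildtype. The 1 tested fat cell marker not called, Acvr1c, was lower in hypomorph without overlap. It read 505 and 665 there and 677 and 741 in wildtype (-0.27, limma adjusted p = 0.320). Of 10 tested enterocyte markers 6 were called higher and 0 lower (limma, 0 lower before adjustment), and the 12 on the array summed to 27082 and 27910, against 19828 and 20138 in wildtype, with a median of 0.99. Fabp1, a fatty acid binding protein of absorptive cells, read 1005 and 892 in hypomorph and 162 and 144 in wildtype. The rise was uneven across the list. Slc15a1 (0.49), Slc5a1 (0.16), Vil1 (0.16) and Fabp2 (0.08) were above 0 but not called. Fabp2 read 7833 and 8308 in hypomorph and 7566 and 7661 in wildtype. Anpep and Treh were too dim to test. Both counts, 9 and 6, were the same without each of the 4 arrays. The fat cell genes Lipe, at 9.52 and 8.61 in hypomorph and 13.1 and 14.1 in wildtype, and Retn, below 50 on all 4 arrays, were too dim to test. Of 7 brown fat markers 5 read below 50 on all arrays, and Ucp1, the uncoupling protein that defines brown fat, read 7.95 and 8.51 in hypomorph and 10.8 and 3.56 in wildtype. The 2 tested, Cox7a1 (0.37, limma adjusted p = 0.231) and Ppargc1a (-0.51, limma adjusted p = 0.0781), were not called. Before adjustment Cox7a1 was higher and Ppargc1a lower. The part of fat cell and enterocyte RNA in the rises of Slc25a20 and Slc25a10 was not tested.

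Carriers of adenine nucleotides and phosphate showed 0 calls among 7 tested members in limma, with 0 higher and 1 lower before adjustment, and their differences ran from -0.15 to 0.22. Slc25a5, the ADP/ATP carrier typical of dividing cells, measured 7799 and 7717 in hypomorph, against 7561 and 7427 in wildtype. All 8 of its probe sets were tested, and on the deposited scale all 8 differences were above 0, between 0.03 and 0.31, with 0 called. For the brightest, both hypomorph arrays lay slightly above both wildtype arrays, by 0.05 (SE 0.05, 95% interval -0.07 to 0.16, limma adjusted p = 0.629). The gene is X-linked, as are Slc25a14 and Slc25a53, whose differences were 0.01 and 0.16 and also did not pass. Most probe sets of Slc25a5 have an ID ending in x_at, which marks probes that can also bind other sequences, and what share of their signal is Slc25a5 was not tested. The same ending and limit apply to most tested probe sets of Slc25a39, its brightest among them. They also apply to the second probe set of Slc25a32 and to the Slc25a4 probe set with the largest difference.

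Slc25a4, the ADP/ATP carrier that prevails in heart and skeletal muscle, read 2483 and 2498 in hypomorph and 2228 and 2336 in wildtype, without overlap (0.12, limma adjusted p = 0.398). Its other bright probe sets gave larger differences that were not called, though both had an unadjusted p under 0.05 in limma. The counts before adjustment take only the brightest probe set of each gene. The first read 2474 and 1991 in hypomorph, against 1738 and 1686 in wildtype (0.37, limma adjusted p = 0.0936). The second read 2343 and 1800 in hypomorph, against 1440 and 1529 in wildtype (0.46, limma adjusted p = 0.0685). In both the hypomorph arrays differed from each other by more than the wildtype arrays did. Muscle markers were called in 0 of 7 tested cases (limma, 0 higher and 1 lower before adjustment), and 3 further ones, Acta1, Myh2 and Tnnt3 of striated muscle, read below 50 on all arrays. Slc25a31, the ADP/ATP carrier of the testis, read between 1.84 and 8.33 and was not tested.

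Slc25a3, which imports the phosphate used for ATP synthesis, measured 9813 and 10692 in hypomorph, against 11236 and 11527 in wildtype. Both hypomorph arrays lay below both wildtype arrays, with a log2 difference of -0.15 (SE 0.05, 95% interval -0.27 to -0.03), but the difference was not called (limma, adjusted p = 0.152). Without hypomorph replicate 2 it was called, at -0.21 (limma, adjusted p = 0.0206), and without hypomorph replicate 1 it was -0.09 (adjusted p = 0.367). The calcium-regulated ATP-Mg/phosphate carriers did not pass either. Slc25a24 read 3436 and 3769 in hypomorph, against 3843 and 4121 in wildtype (-0.14, limma adjusted p = 0.315). Slc25a23 read 153 and 153 in hypomorph, against 154 and 152 in wildtype (-0.0027, and 0.04 under quantile normalisation). Slc25a25 read 166 and 158 in hypomorph, against 112 and 160 in wildtype (0.22, limma adjusted p = 0.537). The groups of Slc25a24 did not overlap, and those of Slc25a23 and Slc25a25 did. Slc25a42, which carries coenzyme A, differed by 0.21 (limma, adjusted p = 0.510).

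Among carriers of di- and tricarboxylates and of the malate-aspartate shuttle, the 4 tested differences ran from 0.0017 to 0.35, and the signs of Slc25a12 and Slc25a13 were not stable. Slc25a10 was the 1 called. Slc25a11, the oxoglutarate/malate carrier, read 1297 and 1446 in hypomorph, against 1225 and 1139 in wildtype, with no overlap (0.21, limma adjusted p = 0.283). The aspartate/glutamate carriers Slc25a12 and Slc25a13 had overlapping groups. Slc25a12 read 660 and 878 in hypomorph and 753 and 768 in wildtype, and its other tested probe sets differed by -0.20 and -0.35. The difference of Slc25a12 was -0.0041 under median centring, -0.20 without hypomorph replicate 2, -0.01 without wildtype replicate 1 and -0.18 for the mean of all its probe sets. Slc25a13 read 146 and 73.7 in hypomorph and 102 and 74.8 in wildtype, and its interval, from -0.35 to 0.74, was wide. Its difference of 0.20 became -0.18 without hypomorph replicate 1 and 0.57 without hypomorph replicate 2. The glutamate carriers Slc25a18 and Slc25a22 were too dim to test.

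Among carriers of carnitine, amino acids and glutathione, 10 members were tested and Slc25a20 was the 1 called. Slc25a15, the ornithine carrier of the urea cycle, read 4823 and 4819 in hypomorph, against 5576 and 5406 in wildtype. Its hypomorph arrays were nearly equal and lay below both wildtype arrays (-0.19, SE 0.06, 95% interval -0.32 to -0.05), which did not pass the adjusted test (limma, adjusted p = 0.119). Slc25a39, a glutathione carrier, read 6007 and 6316 in hypomorph and 6524 and 7050 in wildtype. On the deposited scale its 4 tested probe sets all had differences below 0, between -0.14 and -0.03, and 0 were called. Its relative Slc25a40 differed by -0.01 (limma, adjusted p = 0.969). Slc25a29, a carrier of basic amino acids, read 90.2 and 101 in hypomorph and 84.5 and 101 in wildtype, and its 3 tested probe sets had both signs, from -0.22 to 0.03. The brightest turned below 0 without hypomorph replicate 2 (-0.03) and without wildtype replicate 1 (-0.06).

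Carriers of metals, nucleotides and cofactors had 6 of 7 tested differences below 0 and a median of -0.14, with the sign of Slc25a37 turning under quantile normalisation (0.0069) and without hypomorph replicate 1 (0.26), and that of Slc25a51 for the mean of its probe sets (0.0042). The arrays of 5 of the 7 did not overlap and were lower in hypomorph, beside 11 of all 35 tested carriers and 30.0% of all genes tested. Of all 11577 genes tested, 6390 had a difference below 0. Slc25a16 was the 1 called in this role. Slc25a33 and Slc25a36 import pyrimidine nucleotides. Slc25a33 read 554 and 543 in hypomorph, against 712 and 603 in wildtype (-0.24, limma adjusted p = 0.313), and Slc25a36 read 3626 and 3625 in hypomorph, against 3830 and 3739 in wildtype (-0.06, limma adjusted p = 0.644). All 3 probe sets of Slc25a36 had differences below 0, down to -0.24. Slc25a32, a folate and flavin carrier, differed by -0.21 and in its second probe set by -0.35, where 325 and 369 in hypomorph stood against 455 and 444 in wildtype, and neither was called (limma, adjusted p = 0.369 and 0.186). Slc25a51, the carrier of NAD, read 566 and 589 in hypomorph, against 627 and 657 in wildtype. The other 2 probe sets of Slc25a51 gave -0.06 and 0.21, so their signs differed. The iron carriers, the mitoferrins, overlapped between groups. Slc25a28 read 1447 and 1608 in hypomorph, against 1469 and 1510 in wildtype (0.03, and -0.04 without hypomorph replicate 2). Slc25a37, the form of red cell precursors, read 86.1 and 146 in hypomorph, against 118 and 114 in wildtype (-0.03). Without hypomorph replicate 2 the difference of Slc25a37 was -0.33.

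Of the carriers related to uncoupling proteins, Slc25a14, Slc25a27 and Slc25a30, and of those with a poorly defined substrate, 0 of 7 tested were called in limma. Before adjustment 1 of them was higher, Slc25a34, an orphan carrier. Slc25a34 read 437 and 307 in hypomorph, against 221 and 233 in wildtype. Both hypomorph arrays lay above both wildtype arrays but far from each other, and the difference of 0.62 was the highest of any tested carrier (SE 0.18, 95% interval 0.23 to 1.01, limma adjusted p = 0.0854). It was called without hypomorph replicate 2 (0.86, limma adjusted p = 0.0165), and without hypomorph replicate 1 it was 0.39 (limma adjusted p = 0.32). Slc25a46, an outer membrane protein involved in mitochondrial shape, read 2259 and 2756 in hypomorph and 2856 and 2736 in wildtype (-0.16), and its second probe set had the opposite sign (0.09). Slc25a53 read 82.1 and 82.8 in hypomorph and 68.3 and 72.3 in wildtype, and its second probe set differed by -0.03.

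**Figure D2:**
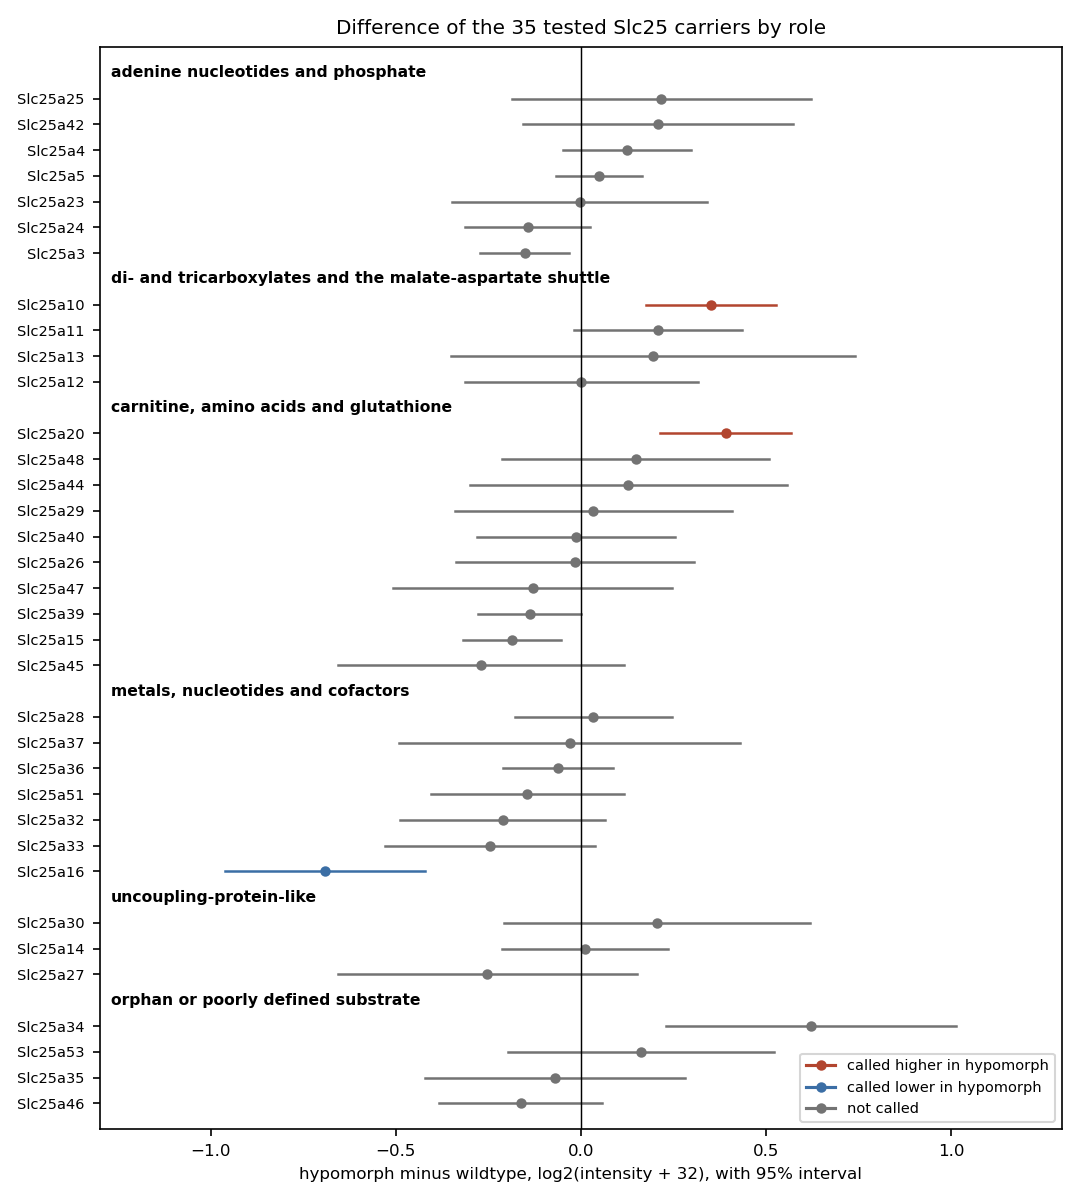
Difference in log2(intensity + 32), hypomorph minus wildtype, for the 35 tested carriers grouped by role, with the 95% interval of each, not adjusted for the number of genes. Slc25a20 and Slc25a10 lie right of 0 and Slc25a16 left of 0 as the called members, and the 32 others did not pass.

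The tested carriers not named with their values, Slc25a26, Slc25a27, Slc25a30, Slc25a35, Slc25a44, Slc25a45, Slc25a47 and Slc25a48, differed by -0.27 to 0.21, and 0 of these passed or had an unadjusted p under 0.05 in limma. The 8 carriers left untested were Slc25a2, Slc25a17, Slc25a18, Slc25a22, Slc25a31, Slc25a38, Slc25a41 and Slc25a54. They read between 1 and 51 on every array, with differences between -0.32 and 0.27, so changes in them could not be assessed. Of the 16 carriers with more than 1 tested probe set, 10 had differences of one sign and 6 of both. Of the 64 tested probe sets of the family 3 were called, each of them the brightest of its gene.

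**Figure D3:**
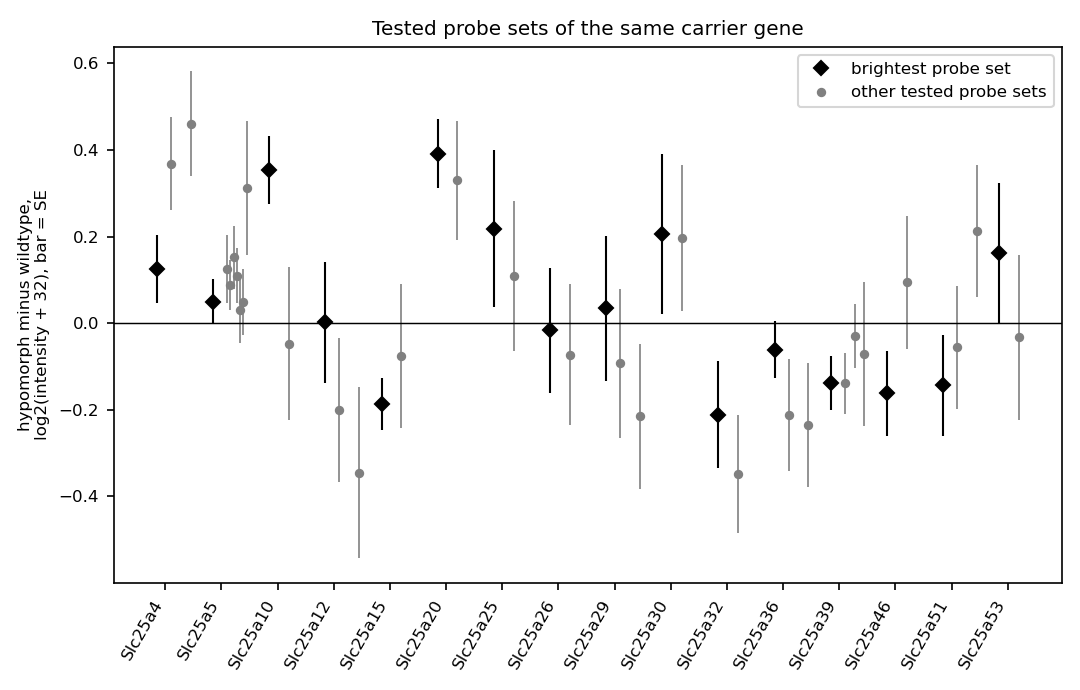
Difference in log2(intensity + 32), hypomorph minus wildtype, of every tested probe set of the 16 carriers that had more than 1, with SE bars. Diamonds are the brightest probe set and circles the others. The 8 probe sets of Slc25a5 lie between 0.03 and 0.31, and those of Slc25a10 on either side of 0.

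Genes that work beside the carriers gave 0 calls in limma. In the carnitine shuttle 0 of 6 tested passed, and 0 at an unadjusted p under 0.05, with a median difference of 0.06. Its smallest p belonged to the carnitine uptake gene Slc22a5, at 1326 and 1318 in hypomorph, against 1206 and 1197 in wildtype (0.13), and to the acyltransferase Crat (0.21). Cpt1a, the entry enzyme of the shuttle, read 2456 and 2328 in hypomorph and 2412 and 2556 in wildtype. Its groups overlapped, and those of Slc25a20 did not. Of the malate-aspartate shuttle enzymes 0 of 4 were called, with 0 at an unadjusted p under 0.05 and a median of 0.01. They were led by Mdh2 at 0.10 and Got1 at -0.14, and the groups of Got1 overlapped. The machinery that inserts carriers into the inner membrane, the TIM22 pathway, had 0 of 12 called and a median of 0.03. Timm8b, a small chaperone of the space between the membranes, was higher before adjustment, at 761 and 729 in hypomorph, against 640 and 584 in wildtype (0.27, limma adjusted p = 0.226).

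Markers of mitochondrial mass had 0 of 9 called and 0 at an unadjusted p under 0.05, with a median of -0.05 and a range from -0.18 to 0.01. Citrate synthase, Cs, read 8065 and 8429 in hypomorph, against 8850 and 8727 in wildtype (-0.09), and the transcription factor Tfam differed by -0.18. The regulators of mitochondrial biogenesis had 0 of 8 called and a median of -0.12, and 1 was lower before adjustment. This was Ppargc1a, a coactivator of mitochondrial genes, at 466 and 380 in hypomorph, against 584 and 642 in wildtype, without overlap (-0.51, limma adjusted p = 0.0781), and 1 gene of the list was called lower with the mean of all probe sets. Nrf1 followed at -0.20. Of 4 family members named otherwise on the array, 2 were tested and 0 called, with 1 higher at an unadjusted p under 0.05. It was Mtch2, an insertase of the outer membrane, at 1707 and 1645 in hypomorph, against 1363 and 1457 in wildtype (0.24, limma adjusted p = 0.170), and its relative Mtch1 differed by -0.05. The 2 untested were Ucp1 and Ucp3. Ucp3 read 72.6 and 50.7 in hypomorph and 38.1 and 22 in wildtype, without overlap (0.60). Without a filter 2 of the 4 were higher before adjustment, and 0 were called (limma).

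**Figure D4:**
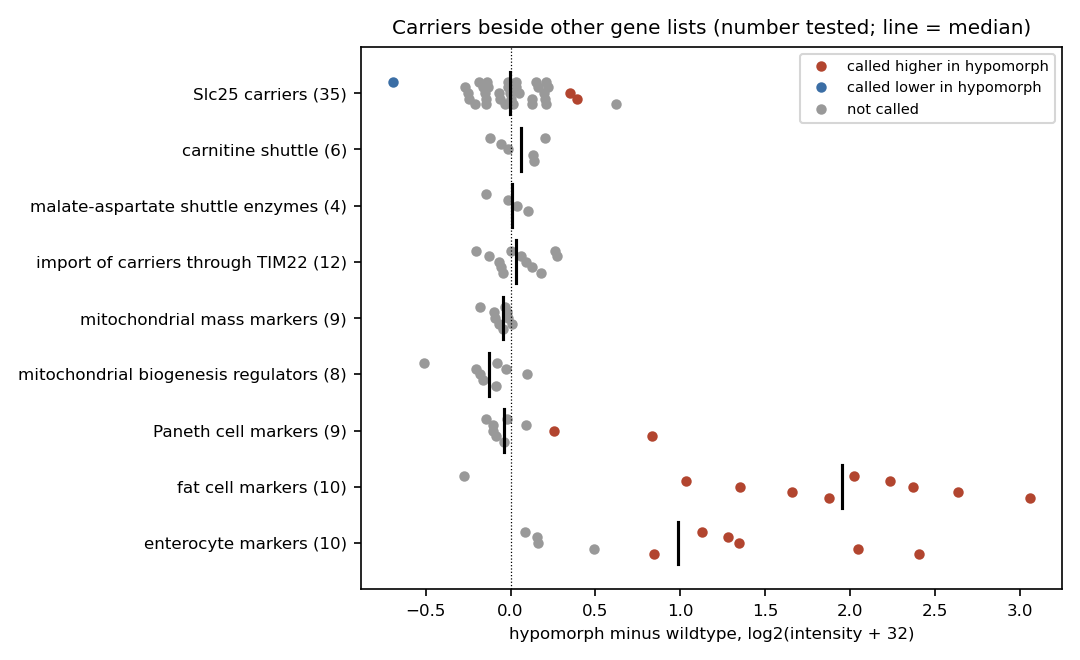
Difference in log2(intensity + 32), hypomorph minus wildtype, of each tested gene in the carrier family and 8 other lists, with the number tested in brackets and a line at the median. The medians of the carriers (-0.0027), the carnitine shuttle (0.06) and the mass markers (-0.05) lie near 0, whereas 9 of 10 markers of fat cells were called higher, as were 6 of 10 of enterocytes.

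Markers of other cells that the capture could hold were also read. Of those tested, 3 of 7 fibroblast and 2 of 7 T cell genes were called higher, and 4 of 8 enteroendocrine genes lower. The fibroblast calls were Col1a1, Col1a2 and Sparc. Col3a1 (0.22), Pdgfra (-0.11), Dcn (0.10) and Lum (0.03) were not called, and the groups of Pdgfra, Dcn and Lum overlapped. The T cell calls were the granzymes Gzma and Gzmb. Before adjustment 2 T cell genes were higher and 1 lower, Ptprc (-0.26, limma adjusted p = 0.216). Cd7 differed by -0.42, Itgae by -0.09, Cd8a by 0.08 and Cd3g by 0.04, each with overlapping groups and no call. Without hypomorph replicate 2 or without wildtype replicate 1 only 1 fibroblast gene was called higher, without wildtype replicate 1 only 2 enteroendocrine genes were called lower, and without hypomorph replicate 2 1 T cell gene was called lower. Without a brightness filter 0 enteroendocrine genes were called lower and 1 fibroblast gene higher, and without an intensity trend 1 and 1. Among 5 endothelial and 7 goblet cell genes 0 were called in limma, while before adjustment 3 endothelial genes were higher, and of the goblet cell genes 1 was higher and 3 lower. Without hypomorph replicate 2, 1 endothelial gene was called higher and 1 goblet cell gene lower, and without wildtype replicate 1, 1 endothelial gene was called higher. Col1a1 of fibroblasts read 642 and 631 in hypomorph, against 333 and 339 in wildtype, and Gzmb of cytotoxic lymphocytes read 516 and 551 in hypomorph, against 220 and 149 in wildtype. The hormone gene Gip of enteroendocrine cells read 72 and 47.3 in hypomorph, against 171 and 158 in wildtype. The part of these cells in the carriers' differences was not tested.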

How the data were processed

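Per the labels' protocols, PicoPure reagents were used to isolate RNA from captured Paneth cells, and RiboAmp Plus to amplify it before biotin labelling. The authors deposited a linear intensity for each probe set and array. The sources used here do not give its scaling, background correction, probe summary or detection calls. Trimmed array means differed at most 1.02-fold, so the intensities received no further normalisation, and all 4 columns entered the fit.

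GEO's platform annotation supplied the gene symbols. Of 45101 probe sets 64 controls were left out, and of the rest 34945 carried 1 symbol, 932 several and 9160 none. Only those with 1 symbol were named, which leaves out 1 probe set shared between a carrier and another gene. Symbols and chromosomes were checked by gene ID in RefSeq's gene table (GRCm38.p6). No build is named for the arrays, and coordinates are given only for the promoter sequences, which come from RefSeq.

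The values log2(intensity + 32) of the 22519 probe sets at or above the median mean (6.32) were fitted in limma 3.58.1 under R 4.3.3 with the group as the only term, and eBayes with an intensity trend (2 residual and 7.81 prior degrees of freedom). The test was two-sided with Benjamini-Hochberg adjustment over all 22519. With so few arrays, the pooled variance estimate carries most of the weight. The procedure was tested on simulated data, where it recovered 21.7% of log2 changes of 0.5, 79.7% of those of 1 and 100% of those of 2.

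The members and lists were chosen with earlier results of these data known. Named with values for each array were called members, Slc25a20 and Slc25a5, the 5 brightest in wildtype, the 6 uncalled with the smallest p, members of paralogue groups, and members whose tested probe sets disagreed in sign. Of the other lists, up to 4 called genes or the 2 with the smallest p were eligible. Slc25a14, Slc25a32, Slc25a40, Slc25a42, Cpt1a, Cs, Tfam, Lipe, Retn, Ucp1, Lyz1 and the untested genes fall outside this rule and were picked with their values in view. The uncalled T cell genes Ptprc, Cd7, Itgae, Cd8a and Cd3g also fall outside it. So do the uncalled fat cell, enterocyte and fibroblast genes that are named. The alternatives were a replicate block, leaving out single arrays (the array that remains alone is taken to vary as the other group does), averaging a gene's probe sets, other scalings, a lower and a higher pseudocount, other filters, a robust prior and no trend.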

Additional observations from a re-analysis of the deposited data

How the results depend on the processing

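The same 3 carriers, Slc25a10, Slc25a20 and Slc25a16, were called under quantile normalisation, median centring, a lower and a higher pseudocount, a stricter brightness filter and a robust prior. Without a filter 0 were called higher and 0 lower in limma (3 each before adjustment), with Slc25a20 at 0.39 (adjusted p = 0.0927), and adjusted p = 0.123 for Slc25a10 and 0.0546 for Slc25a16. Without an intensity trend 0 and 0 were called (3 higher and 1 lower before adjustment), with Slc25a20 at 0.39 (adjusted p = 0.142), and adjusted p = 0.17 for Slc25a10 and 0.0615 for Slc25a16. Dropping the filter changes the shared spread and the number of probe sets tested, and dropping the trend changes only the shared spread. Neither changes the differences. With the mean of all probe sets 0 were called higher (4 before adjustment) and Slc25a20 stood at 0.36 (adjusted p = 0.0684) and Slc25a10 at 0.15 (adjusted p = 0.388). Leaving out each array in turn gave 0 to 2 higher and 0 to 2 lower calls (3 to 4 higher and 1 to 6 lower before adjustment, the 6 without hypomorph replicate 2), and 0.35 to 0.43 for Slc25a20. The 2 higher calls without hypomorph replicate 2 were Slc25a20 and Slc25a34. With the replicate block 3 were called higher and 3 lower, the added ones being Slc25a34, Slc25a3 and Slc25a15, while all genes called grew to 853 higher and 884 lower, against 293 and 197 without it. The labels do not say that equal numbers mark shared animals or days, and with 2 pairs (correlation of deviations 0.264) the numbers were not taken as pairs. Among the 20 named carriers that were not called, 17 stayed uncalled under every alternative in which they were tested, and 7 changed sign under at least 1, all without a call. Dim probe sets and 2 arrays a group limit what could be detected.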
